A study of Mus musculus with 3 samples.

Results

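The gene set described here holds the enzymes of cholesterol synthesis together with the genes that sense, move and export sterols in lung endothelial cells (ECs). It has 29 genes of the 32285 in the files, chosen by symbol because synthesis genes were higher in these same data 30 h after an injection of melanoma cells. The differences at 30 h are therefore a description of how the set was picked, and no test was made of them. By role the set splits into 18 synthesis enzymes, 5 genes of sterol sensing, 2 of uptake and intracellular transport, 3 of efflux and its nuclear receptor, and Lpin1, which encodes a phosphatidate phosphatase.

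Wild type C57BL/6 mice, 8 to 10 weeks old, received 200000 B16-F10 melanoma cells in 100 µl of PBS, or PBS alone, through the tail vein. B16-F10 cells are a mouse skin melanoma line, and cells given into a vein reach the lung capillaries directly, without growth in or escape from a primary tumor. Lungs were taken after 6 h (control and melanoma) or 30 h (melanoma), and Pecam1-positive, Ptprc-negative cells were sorted, with dye-labelled melanoma cells also collected from the metastatic lungs. Each group is 1 library of pooled mice, 2 per treatment per the labels and 3 per the study's methods. The only control is PBS at 6 h, and these libraries hold no PBS-treated mice at 30 h. Time since injection and the presence of melanoma cells therefore cannot be told apart at 30 h. A single library per group gives neither a replicate error nor a test of any difference, and every interval in this text is a 95% interval that covers counting error only.

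Cells make cholesterol from acetyl-CoA through mevalonate, isoprenoids, squalene and lanosterol. When membranes of the endoplasmic reticulum hold little sterol, the escort protein SCAP carries the SREBP transcription factors to the Golgi for cleavage, and the released factors turn on synthesis genes and Insig1, which holds SCAP back when sterol is plentiful. Oxysterols act the other way through the LXR nuclear receptors, which turn on the exporters Abca1 and Abcg1.

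Stretches before the start sites of 5 genes are shown because they belong to members at least 1.5-fold higher at 30 h and carry letters that SREBPs or their usual partner NF-Y are known to bind. The other members past that limit had no entry, or held the letters in no stretch clear of exons that was long enough to show. The stretches come from RefSeq promoters (250 bases before to 50 after the start) on GRCm38.p6, read on the gene's strand, and lie outside every exon of the GENCODE M21 annotation. Capitals mark the sterol regulatory element TCACNCCAC, found in Hmgcs1, and the CCAAT box on either strand (ATTGG on the other strand). The motifs do not overlap in these windows, and that of Srebf1 belongs to the outermost of its 3 start sites.
Hmgcs1, chr13:119690154-119690282, plus strand: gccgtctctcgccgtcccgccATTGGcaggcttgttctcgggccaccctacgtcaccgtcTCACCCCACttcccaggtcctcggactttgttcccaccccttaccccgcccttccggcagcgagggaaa
Hsd17b7, chr1:169969254-169969353, minus strand: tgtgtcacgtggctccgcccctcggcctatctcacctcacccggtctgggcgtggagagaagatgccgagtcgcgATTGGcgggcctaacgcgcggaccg
Insig1, chr5:28071162-28071261, plus strand: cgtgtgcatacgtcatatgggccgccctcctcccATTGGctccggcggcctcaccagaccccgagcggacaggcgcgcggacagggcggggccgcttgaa
Srebf1, chr11:60222723-60222822, minus strand: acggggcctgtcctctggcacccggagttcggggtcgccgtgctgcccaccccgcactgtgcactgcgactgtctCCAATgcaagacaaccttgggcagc
Srebf2, chr15:82147059-82147158, plus strand: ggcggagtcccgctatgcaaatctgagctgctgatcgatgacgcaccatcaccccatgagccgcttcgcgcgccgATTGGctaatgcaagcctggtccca

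Promoters were matched for 23 of the 29 genes, without Fdps, Fdft1, Sqle, Npc1, Stard4 and Abcg1. A CCAAT box on either strand was present for 14 of 15 synthesis genes with a promoter and for 4 of 5 sensing genes, against 41.1% of the 27025 genes with a promoter in the same table. Genes with a box include Pmvk, Ebp, Sc5d and Insig2, which were within 1.5-fold of control at 30 h. None of the 2 efflux genes with an entry (Abca1 and Nr1h2) had one, nor did Lpin1. TCACNCCAC was present for 1 of the 23 genes and for 1.44% of all genes. A match is only a run of letters, and its absence from this window says nothing of the factor.

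The EC gate kept 11231 control barcodes, 10583 from 6 h and 9278 from 30 h, with median depths of 7782, 8033 and 8675.5 UMIs. A UMI is a random tag that counts 1 captured RNA molecule, and levels are given as CPM, the UMIs of a gene per 1000000 EC UMIs of the library. The 8 endothelial markers summed to 7732, 7604 and 9203 CPM, none of them at 0. Of these, 7 were higher at 30 h than in control, Kdr among them at 450, 461 and 724 CPM. Tek was lower, at 772, 742 and 691 CPM. The libraries shared between 22 and 38 EC barcodes in pairs. UMIs of 6 rRNA-like gene models stood apart at 30 h, at 21298 CPM against 5014 in control and 6260 at 6 h.

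In all ECs, the summed level of the 18 synthesis genes was 229 CPM in control, 242 CPM at 6 h and 366 CPM at 30 h. The step from control to 30 h was 1.60-fold (1.57 to 1.62), and that from control to 6 h 1.06-fold (1.04 to 1.08). Of the 18 genes, 14 averaged 5 CPM or more across the libraries, and Mvd, Lss, Tm7sf2 and Dhcr7 did not. Of the 14, 8 were at least 1.5-fold higher at 30 h than in control on CPM + 1, none was 1.5-fold lower, and 13 were above a ratio of 1. Sqle reached that mean only through its 30 h level, so it had to differ, and it is part of both counts. Without it, 7 of 13 were at least 1.5-fold higher. Over all 10175 genes at that level, 4.24% were at least 1.5-fold higher, 4.39% at least 1.5-fold lower, and 4163 were above a ratio of 1. At 6 h none of the 14 passed 1.5-fold in either direction, where 1.8% of all genes were higher and 1.14% lower. The median log2 ratio of the 14 was 0.10 at 6 h and 0.69 at 30 h, beside -0.01 and -0.07 over all genes. Without Sqle the medians were 0.10 and 0.64.

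**Figure D1:**
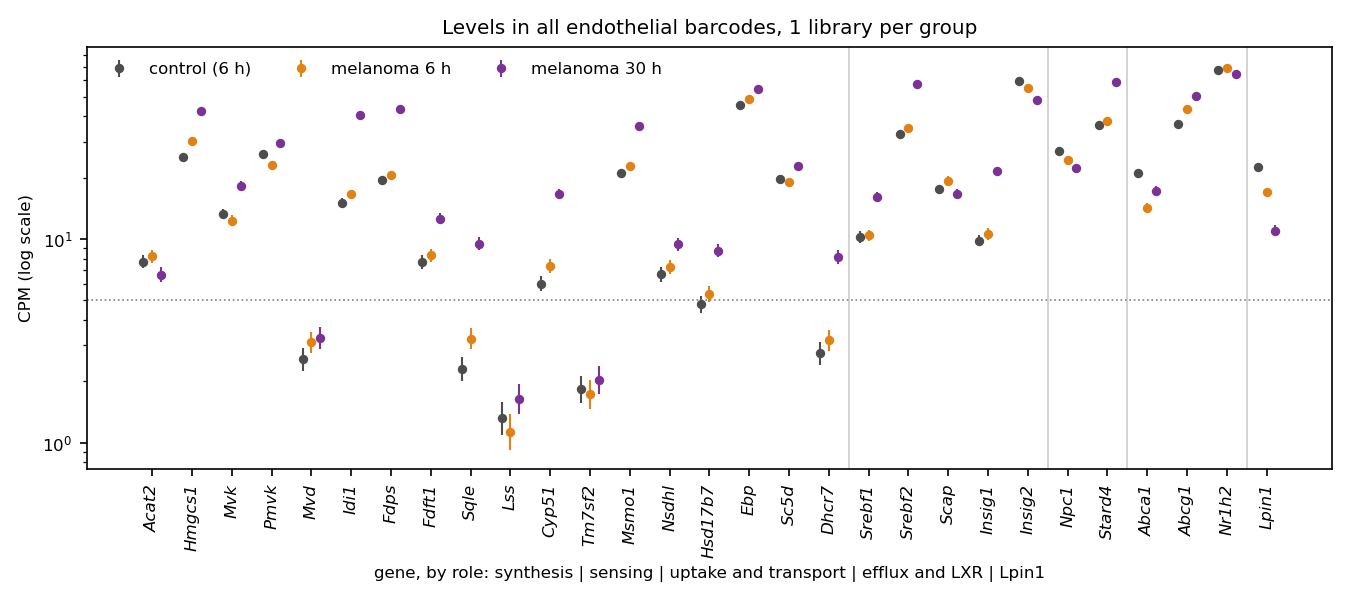
CPM (vertical log axis) of each of the 29 genes in the control, 6 h and 30 h libraries, with exact Poisson 95% intervals as bars, a dotted line at 5 CPM and vertical lines between roles. Points of control and 6 h lie close together for most synthesis genes, and the 30 h points of Idi1, Fdps, Sqle, Cyp51 and Dhcr7 lie above both. Levels of different genes are not comparable as molecules per length.

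The first steps make HMG-CoA and mevalonate derivatives. Acat2, an acetyl-CoA acetyltransferase of the cytosol, was at 7.73 CPM in control, 8.22 at 6 h and 6.66 at 30 h, the only one of the 14 below control at 30 h. Hmgcs1 (the HMG-CoA synthase of the cytosol) was at 25.3, 30.1 and 42.5 CPM, 1.68-fold (1.60 to 1.77) of control at 30 h and 1.19-fold (1.13 to 1.26) at 6 h. Its interval was above 1 at both times. The mevalonate and phosphomevalonate kinases differed less: Mvk was at 13.2, 12.3 and 18.2 CPM, and Pmvk at 26.1, 23.1 and 29.4 CPM. Mvd, which decarboxylates mevalonate diphosphate, stayed under 5 CPM in every library, at 2.58, 3.10 and 3.26.

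The isoprenoid and squalene steps included the largest difference among synthesis genes, that of Sqle. Idi1, which interconverts the isopentenyl and dimethylallyl units, was at 15.0 CPM in control, 16.5 at 6 h and 40.5 at 30 h, 2.70-fold (2.53 to 2.87) of control. Fdps, the farnesyl diphosphate synthase, was at 19.4, 20.7 and 43.2 CPM, 2.22-fold (2.10 to 2.35) of control at 30 h. It overlaps the protein-coding Gm43738 on its strand, so its counts are uncertain. Fdft1, which joins farnesyl units into squalene, was at 7.70, 8.31 and 12.6 CPM, and its 1.63-fold difference (1.48 to 1.80) was the smallest among the 8. Sqle, the squalene epoxidase and a controlled step of the pathway, was at 2.30 CPM in control, 3.24 at 6 h and 9.47 at 30 h. That was 4.12-fold (3.53 to 4.82) of control from 209 UMIs in control and 772 at 30 h, with 1.41-fold (1.17 to 1.69) at 6 h. Lss, which closes squalene epoxide into lanosterol, was at 1.32, 1.13 and 1.64 CPM, and its interval at 30 h (0.966 to 1.61) held 1.

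After lanosterol, the demethylating and reducing enzymes varied among themselves. Cyp51, the lanosterol demethylase, was at 6.03, 7.40 and 16.6 CPM, 2.75-fold (2.49 to 3.05) of control at 30 h. Msmo1, which oxidizes the methyl groups at C4, was at 21.1, 22.9 and 35.8 CPM, 1.69-fold (1.60 to 1.80) of control at 30 h. Hsd17b7, the ketosteroid reductase of the same demethylation, was at 4.77, 5.37 and 8.75 CPM, 1.84-fold (1.63 to 2.07). Its partner Nsdhl, the C4 decarboxylase, was at 6.69, 7.27 and 9.41 CPM and lay just outside the 1.5-fold limit at 1.41-fold (1.26 to 1.57).

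The last steps split again. Dhcr7, which reduces 7-dehydrocholesterol to cholesterol, was at 2.74, 3.19 and 8.16 CPM, 2.98-fold (2.57 to 3.46) of control at 30 h, although its mean of 4.70 CPM left it out of the counts above. Ebp (a sterol isomerase) was at 45.6, 48.8 and 54.5 CPM, and Sc5d (a sterol desaturase) at 19.7, 19.1 and 22.9 CPM, both within 1.5-fold. Tm7sf2, a sterol reductase, was near 2 CPM in each library, at 1.83, 1.73 and 2.04, and overlaps Vps51 on its strand, so its counts are uncertain too. The enzymes that differed most at 30 h therefore sat at several steps, with Pmvk, Ebp and Sc5d between them at 1.13-fold to 1.19-fold.

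**Figure D2:**
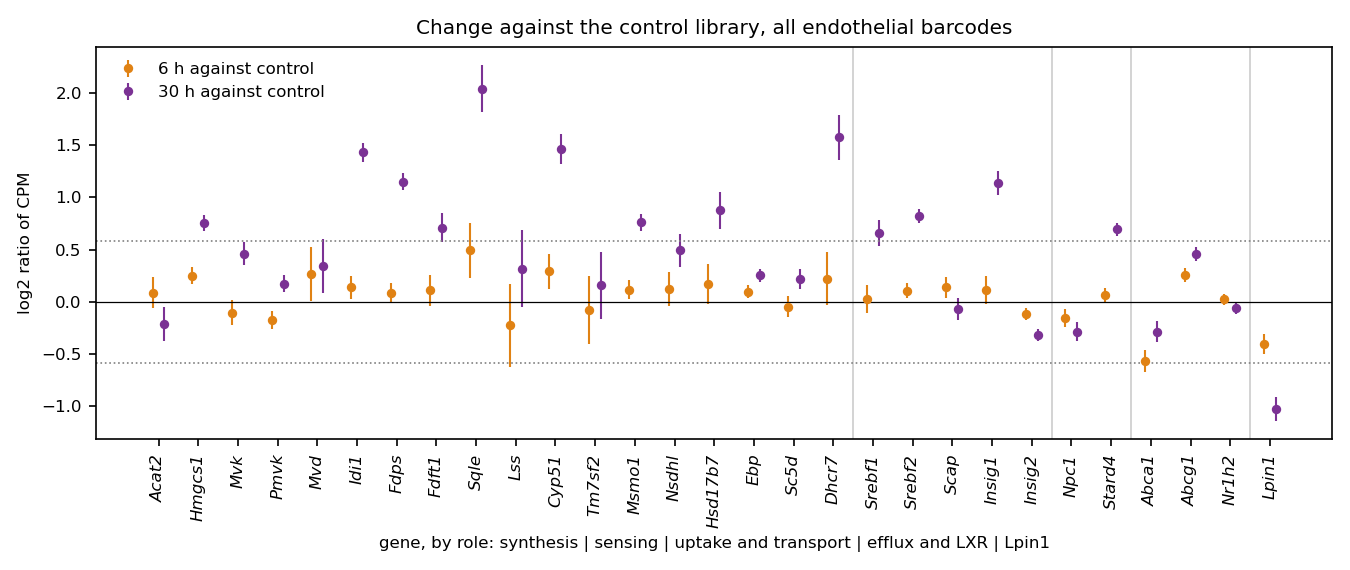
Log2 ratio of CPM against control (vertical axis) for each gene at 6 h and 30 h, with exact 95% counting intervals as bars and dotted lines at 1.5-fold. At 6 h most points lie near 0, with Abca1 and Lpin1 lowest, and at 30 h Sqle, Dhcr7, Cyp51 and Idi1 lie highest and Lpin1 lowest.

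The sensing genes divided into those that were higher at 30 h and those that were not. Srebf2, the factor most tied to synthesis genes, was at 32.7 CPM in control, 35.2 at 6 h and 57.8 at 30 h, 1.77-fold (1.69 to 1.85) of control. Srebf1, which mainly serves fatty acid genes, was at 10.2, 10.4 and 16.2 CPM, 1.58-fold (1.45 to 1.72), just inside the 1.5-fold limit. Insig1 was at 9.82, 10.6 and 21.6 CPM, 2.20-fold (2.03 to 2.39) of control at 30 h. Its relative Insig2, which also retains SCAP, went the other way at 59.6, 54.9 and 47.9 CPM, 0.803-fold (0.771 to 0.837). Scap itself was at 17.6, 19.3 and 16.7 CPM, with an interval at 30 h (0.884 to 1.02) that held 1. So 3 of 5 sensing genes were at least 1.5-fold higher at 30 h (4.24% of all genes), and none at 6 h (1.8%).

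Of the transport and export genes, 1 of 5 was at least 1.5-fold higher at 30 h, a count too small to read against 4.24% of all genes. Stard4, which carries sterol between membranes, was at 36.3, 38.0 and 58.7 CPM, 1.62-fold (1.55 to 1.69) of control at 30 h. Npc1, which releases cholesterol from lysosomes, was at 27.0, 24.3 and 22.2 CPM, 0.821-fold (0.772 to 0.873). The exporter Abca1 was lowest at 6 h, at 21.0 CPM in control, 14.2 at 6 h and 17.3 at 30 h, 0.677-fold (0.630 to 0.727) of control at 6 h. Abcg1, the other exporter, was at 36.5, 43.5 and 50.0 CPM, higher at both times and 1.37-fold (1.31 to 1.44) of control at 30 h. Nr1h2, the LXR that most cells express, was at 67.6, 68.7 and 64.7 CPM. Lpin1 was at 22.4, 17.0 and 11.0 CPM, 0.490-fold (0.453 to 0.531) of control at 30 h and the only member at least 1.5-fold lower. In all, 12 of the 25 members averaging 5 CPM or more were at least 1.5-fold higher (4.24% of all genes) and 1 at least 1.5-fold lower (4.39%) at 30 h, and none was at 6 h. Without Sqle 11 of 24 were higher at 30 h.

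Set against the 6 h library instead, 6 of the 14 synthesis genes were at least 1.5-fold higher at 30 h, beside 4.69% of all genes higher and 4.61% lower. They were Idi1, Fdps, Sqle, Cyp51, Msmo1 and Hsd17b7, and over all members the count was 10 of 25. Without Sqle the counts were 5 of 13 and 9 of 24. Both comparisons share the 30 h library. Sqle was 2.92-fold (2.55 to 3.36) and Idi1 2.45-fold (2.30 to 2.60) of 6 h. Stard4 was 1.55-fold (1.48 to 1.62) and Srebf2 1.64-fold (1.57 to 1.72).

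Other genes of the pathway, listed with earlier results of these data known, were read the same way. Of 10 other sensing genes, 1 was at least 1.5-fold higher and 1 lower at 30 h than in control, where 4.24% of all genes were higher and 4.39% lower. Tmem97, a sterol-responsive membrane protein, was higher at 30 h, at 9.58, 8.04 and 18.1 CPM. Mylip, an LXR-driven ubiquitin ligase, was lower, at 75.6, 53.9 and 37.3 CPM (0.493-fold, 0.473 to 0.515). None of 12 uptake and transport genes and none of 6 efflux, storage and oxysterol genes passed 1.5-fold in any comparison.

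Fatty acid genes, which SREBP-1 serves, were read the same way. Of 13 averaging 5 CPM or more, 1 was higher and 2 lower at 30 h than in control, beside 4.24% and 4.39% of all genes. Against 6 h, 2 were higher and 2 lower, beside 4.69% and 4.61%. Scd2, a desaturase, was at 18.7 CPM in control, 15.1 at 6 h and 46.8 at 30 h. Fads1, another desaturase, passed the limit only against 6 h, at 15.3 CPM at 6 h and 24.2 at 30 h. Me1, the malic enzyme that supplies NADPH, was at 18.3, 17.8 and 6.20 CPM (0.338-fold, 0.305 to 0.373), and Lpin2, a relative of Lpin1, at 149, 131 and 77.7 CPM (0.521-fold, 0.505 to 0.536). The medians of the list were 0.07 against control and 0.15 against 6 h on the log2 scale, beside -0.07 and -0.07 over all genes.

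**Figure D3:**
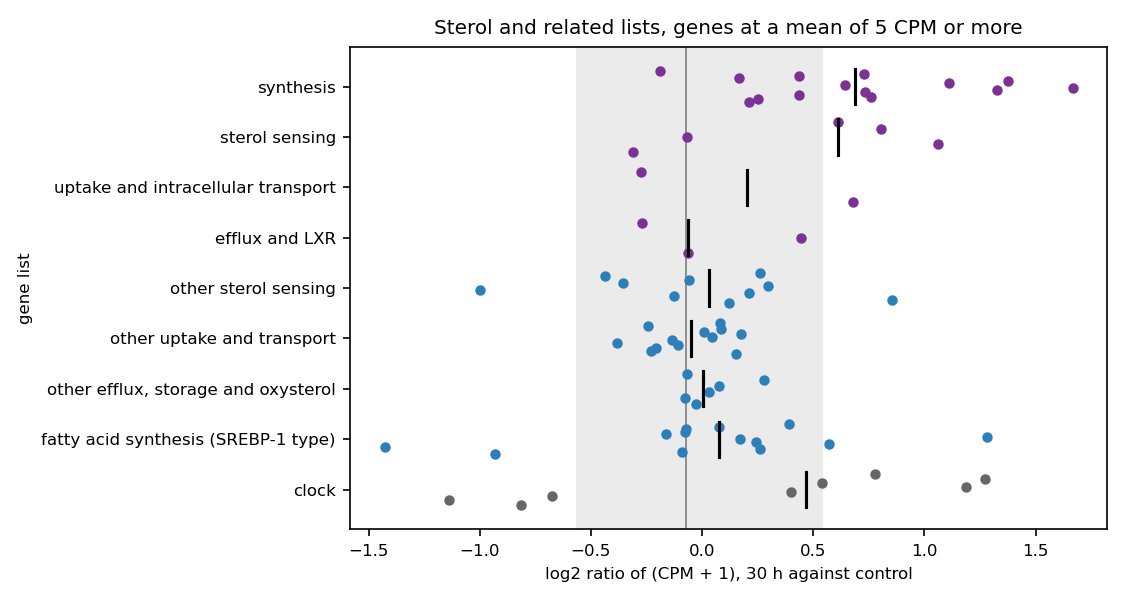
Log2 ratio of (CPM + 1) at 30 h against control (horizontal axis) for genes averaging 5 CPM or more in sterol lists, fatty acid genes and clock genes, with black bars at list medians. The grey band spans the 5th to 95th percentile of all genes, and 8 synthesis genes lie beyond it to the right.

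Classes of ECs were then gated by detected markers. gCap-like cells (general capillary cells) numbered 7650, 7623 and 5994 in control, at 6 h and at 30 h, and aCap-like cells (the large aerocytes that exchange gas) 2213, 1850 and 2070. Artery-like cells numbered 305, 260 and 354, vein-like cells 695, 515 and 520, and lymphatic (LEC-like) cells 69, 57 and 54. Barcodes that passed more than 1 of the aCap, artery, vein and LEC gates (139 to 215 per library) or no gate (84 to 139) were left out. The gCap gate was read only in barcodes that failed those gates. An aCap-like barcode could therefore also hold gCap markers. Per library, 481 to 560 aCap-like, 146 to 171 artery-like and 105 to 163 vein-like barcodes held just the 3 markers the gate asks for. Of the 10 leading genes of each class, 3 to 5 were its own markers. The gates selected on these markers, so this does not test the classes. The summed synthesis level in gCap-like cells was 220 CPM in control, 236 at 6 h and 378 at 30 h, 1.72-fold (1.68 to 1.76) of control. In aCap-like cells it was 258, 266 and 358 CPM, 1.39-fold (1.34 to 1.44), a higher control level and a smaller difference. Vein-like cells were at 228, 250 and 366 CPM (log2 ratio 0.68, 0.59 to 0.78) and artery-like cells at 189, 215 and 285 CPM (log2 ratio 0.60, 0.44 to 0.76). LEC-like cells were at 238, 254 and 285 CPM with an interval (0.943 to 1.52) that held 1. The median depth of aCap-like cells was higher than that of gCap-like cells, 10046 against 7104.5 UMIs in control.

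Synthesis genes at least 1.5-fold higher at 30 h numbered 8 of 14 in gCap-like cells (4.42% of all genes), 4 of 13 in aCap-like cells (5.09%), 6 of 12 in artery-like cells (8.03%) and 8 of 14 in vein-like cells (5.49%). Some genes reached the mean only through 30 h: Sqle and Hsd17b7 in gCap-like and vein-like cells, and Cyp51 in artery-like cells. Without them the counts were 6 of 12 in gCap-like, 5 of 11 in artery-like and 6 of 12 in vein-like cells. The median log2 ratio of those 11 in artery-like cells was 0.22 at 6 h and 0.20 at 30 h. At 6 h 2 of the 11 were at least 1.5-fold higher, and no share over all genes was computed for that count. Msmo1 passed the limit in gCap-like and not in aCap-like cells: it was at 19.4 CPM in control and 39.2 at 30 h in gCap-like cells, and at 27.4 and 30.4 CPM in aCap-like cells, where its log2 interval (-0.01 to 0.31) held 0. Mvk was the reverse case, with log2 ratios of 0.40 in gCap-like and 0.70 in aCap-like cells, and Nsdhl too had the larger ratio in aCap-like cells, 0.58 against 0.35. Cyp51 had log2 ratios of 1.62 in gCap-like and 0.73 in aCap-like cells, and Fdps of 1.39 and 0.67. The counting intervals of the classes did not overlap for 7 of the 24 members averaging 5 CPM or more in both (Hmgcs1, Idi1, Fdps, Cyp51, Msmo1, Srebf2 and Insig1), each with the higher ratio in gCap-like cells. Over all 9708 such genes, 11.6% had a higher ratio in gCap-like cells and 8.76% in aCap-like cells by the same reading. Each class is 1 library per group, and the difference itself was not tested. Lpin1 had log2 ratios of -1.02 and -0.94, with intervals that overlapped.

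Levels also differed between classes within the control library. Stard4 was at 41.0 CPM in gCap-like and 24.0 in aCap-like cells, while Abcg1 was at 28.2 and 58.6 CPM and Npc1 at 23.3 and 36.6 CPM. Abca1 was at 395 CPM in LEC-like cells, from 226 UMIs, against 15.7 to 33.9 CPM in the other 4 classes, and it was at 309 CPM at 6 h and 409 at 30 h. For both exporters the levels thus spread more widely between classes than between libraries.

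**Figure D4:**
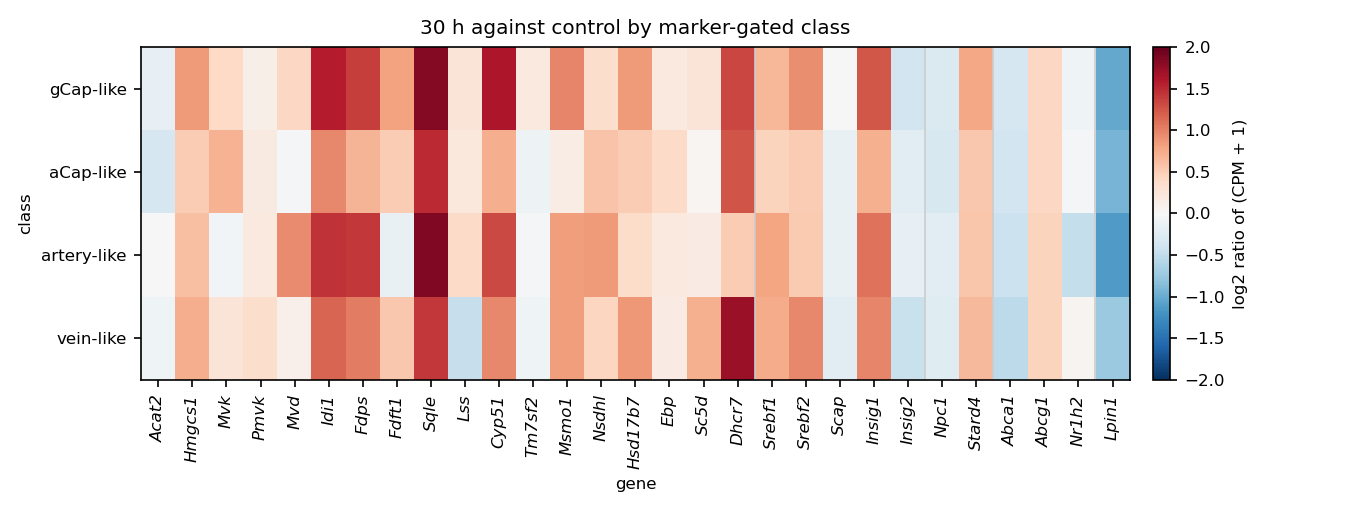
Log2 ratio of (CPM + 1) at 30 h against control for each gene (horizontal) in gCap-like, aCap-like, artery-like and vein-like cells (vertical), red where higher and blue where lower at 30 h. Idi1, Sqle, Cyp51 and Insig1 are red in all 4 classes and Lpin1 is blue in all 4, while Msmo1 is pale in aCap-like cells. Artery-like cells gave the fewest UMIs of the 4.

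The number of synthesis UMIs per cell was compared after each cell had been thinned to 2000 UMIs, which left out 195 control, 197 6 h and 111 30 h cells of lower depth. The mean was 0.453 ± 0.694 (SD, 11036 cells) in control, 0.466 ± 0.702 (10386 cells) at 6 h and 0.737 ± 0.916 (9167 cells) at 30 h. Cells without any synthesis UMI made up 64.3% of control cells, 63.4% of 6 h cells and 49.8% of 30 h cells (48.8 to 50.8). Cells above the control's 95th percentile of 2 UMIs made up 1.35% (1.14 to 1.58), 1.48% (1.26 to 1.73) and 4.81% (4.38 to 5.27). Without thinning the share above that percentile (5 UMIs) was 3.71%, 4.46% and 17.1%. No synthesis UMI was found without thinning in 24.0% of control, 21.8% of 6 h and 12.5% of 30 h cells. Cells are not replicates.

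**Figure D5:**
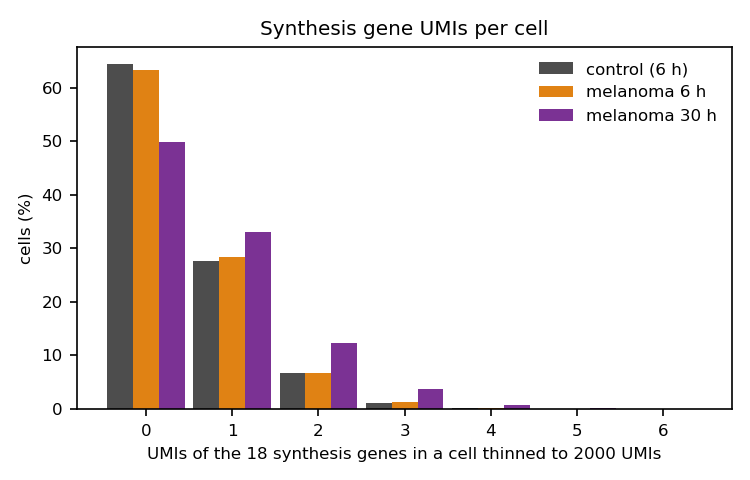
Share of cells (vertical, percent) by the number of UMIs from the 18 synthesis genes in a cell thinned to 2000 UMIs (horizontal), in control, 6 h and 30 h libraries. The share at 0 is lower and the shares at 1, 2 and 3 higher at 30 h, and control and 6 h nearly coincide.

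Other measures moved with the 30 h library. Of 8 clock genes averaging 5 CPM or more, 3 were at least 1.5-fold higher (4.24% of all genes) and 3 lower (4.39%) at 30 h than in control: Per1 was at 24.8, 13.0 and 43.2 CPM, Dbp (which reached the mean only through 30 h) at 4.94, 4.20 and 12.5, Arntl at 37.3, 26.3 and 16.4, Cry1 at 23.4, 24.1 and 12.9, and Ciart at 10.8, 11.5 and 6.37 CPM. Nr1d1 was at 9.80 CPM in control and 17.3 at 6 h, and was 2.56-fold of control at 30 h. Heat shock genes had a median log2 ratio of 0.98 at 6 h and 0.31 at 30 h, and immediate early genes of 0.58 and -0.45. Of the markers of other cells, the summed red cell list was at 3249, 2119 and 829 CPM, the epithelial list at 839, 612 and 383, the immune list at 92.6, 142 and 78.0 (most of it Lyz2, at 75.1, 86.8 and 42.6, while 8 of the 10 immune markers were higher at 30 h than in control, Ptprc among them at 3.16, 4.95 and 6.53), the fibroblast list at 39.2, 29.5 and 38.9, and the platelet list at 170, 206 and 168 CPM. Pericyte and smooth muscle markers were at 94.7, 89.5 and 101 CPM. Of these 8, 2 were higher at 6 h and 4 at 30 h than in control, Acta2 among them at 2.89, 10.1 and 8.69 CPM. Melanoma markers were at 23.5, 40.5 and 20.7 CPM, most of it Mitf at 18.8, 21.5 and 14.5. All 8 melanoma markers were higher at 6 h than in control and 1 was at 30 h. Also, 1 of the 8 melanoma markers was at 0 in control and in the 30 h library. The part of any of these in the synthesis result was not tested.

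Some of these were varied by leaving barcodes out. No subset was made for the red cell markers or for the clock, heat shock and immediate early genes. The marker subset left out barcodes carrying markers of another cell type (red cells aside). It kept 4902 of 11231 barcodes in control, 6235 of 10583 at 6 h and 5898 of 9278 at 30 h. Its median log2 ratio of synthesis genes at 30 h was 0.68 with 7 of 13 genes past 1.5-fold. Without barcodes of 2% or more rRNA-like UMIs the median was 0.70 with 8 of 14 genes. That subset kept 99.2% of control, 97.9% of 6 h and 50.0% of 30 h cells. With 10% of UMIs taken as free RNA the median was 0.63 with 7 of 13 genes, beside 0.64 without Sqle and with no subtraction. Doublets were not removed, and without those a Scrublet score marked it was 0.68 with 8 of 14 genes. Over all genes the medians were -0.07 in the marker subset, -0.05 without rRNA-like barcodes, -0.07 with free RNA subtracted and -0.07 without doublets. In all ECs Sqle reached the mean only through 30 h, and the subset counts were not redone without such genes. No share of all genes past 1.5-fold was computed for these subsets, so their counts cannot be read against one.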

How the data were processed

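The authors deposited UMI counts for 3 libraries, made with Cell Ranger 7.2.0 per the file headers and the submitters' processing notes, on mm10. Seurat 4.4.0 is also named there. Whether introns were counted, and whether strand was used, is not given in the sources used here. Without strand, reads of genes that overlap on opposite strands could not be told apart: Cyp51 and Akap9, Fdft1 and Ctsb, Srebf1 and Rai1, Npc1 and Rmc1, Mvd and Gm20388, Hmgcs1 and Gm48342, and Idi1, Lss, Scap and Insig2 with antisense or unverified models. Srebf1, Srebf2 and Abcg1 overlap small RNA or unverified gene models on their own strand. Matrices hold all barcodes, 124085451 to 140601123 UMIs per library. Barcodes with 1000 to 5000 genes, under 20% mitochondrial UMIs and at least 2 Pecam1 plus Cdh5 UMIs were kept as ECs (Python 3.11.15, numpy 2.4.6, scipy 1.17.1, scanpy 1.11.5). For each library and class, UMIs were added up and expressed as CPM. Log2 ratios of single genes, their medians and the 1.5-fold counts (over genes averaging 5 CPM or more) used CPM + 1. Fold values, summed levels, all intervals and the plot of changes by gene used plain CPM ratios. Intervals are exact (Poisson, conditional binomial, Clopper-Pearson). aCap, artery and vein gates needed 3 of 6 markers, and LEC 3 of 7 entries of its 6 markers. The gCap gate needed 2 of 7 markers in a barcode that failed all of those gates. Scaling, pseudocount, filters, gates, doublets, thinning and free RNA were varied. The ratio code was tested on simulated data. Members and lists were chosen with earlier results of these data known. All members have levels, those past 1.5-fold in any comparison are described singly, and listed non-members past it are named where the mean was at least 5 CPM, except for a result that is not reported here. Of 32285 gene IDs, 32158 (99.6%) were in GENCODE M21.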

Additional observations from a re-analysis of the deposited data

Results flagged for a closer look

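Pmvk, the phosphomevalonate kinase, went opposite ways at the 2 times: its log2 ratio of CPM + 1 against control was -0.17 at 6 h and 0.17 at 30 h, with both counting intervals away from 0. Both comparisons share the control library and the difference between them was not tested. In barcodes of 1 to 100 UMIs, which the comparisons do not use and which hold mostly free RNA, the 18 synthesis genes were at 287 CPM in control (270 to 305), 309 CPM at 6 h (289 to 330) and 414 CPM at 30 h (397 to 431), a log2 ratio of 0.53 (0.42 to 0.64) at 30 h against control. Free RNA thus differed in the same direction as the cells, and its part in the result was not tested beyond the subtraction given above.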

How the results depend on the processing

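No paired analysis was possible because each group holds 1 library in the files used here, and leaving out a replicate cannot be done. The 25 member values past 1.5-fold at 30 h, 2 of them of Dhcr7, which the counts leave out, kept their direction under each of the 18 alternatives that can change the ratio of a single gene, and 422 of 450 stayed past 1.5-fold. The median log2 ratio of synthesis genes at 30 h against control, 0.69, was 0.48 with a pseudocount of 5 CPM, 0.54 with no low-level filter, 0.83 in gCap-like and 0.50 in aCap-like cells. Against 6 h it was 0.54, and 0.42, 0.65 and 0.39 with that pseudocount and in gCap-like and aCap-like cells. Some of these medians include genes that reached the mean only through 30 h. Without Sqle, those in all ECs were 0.64 against control and 0.53 against 6 h. Without Sqle and Hsd17b7, those in gCap-like cells were 0.60 and 0.54. No synthesis gene reached the mean only through 30 h in aCap-like cells. The 8 of 14 genes past 1.5-fold against control became 4 of the 7 genes at a mean of at least 20 CPM, 4 of 13 in aCap-like cells and 4 of 14 at 2-fold, and the 6 of 14 against 6 h became 3 of 7 at that mean, 2 of 13 in aCap-like cells and 11 of 14 under the lower fold limit tried. At 6 h against control, 0 became 1 under that lower limit. No share of all genes was computed at that mean, at 2-fold or under the lower limit. None was computed in aCap-like cells against 6 h either. The counts under these settings therefore cannot be read against a share of all genes. The log2 ratio of synthesis UMIs per thinned cell, 0.70, was 0.79 without thinning. With 1 marker more or fewer per gate the summed ratio in aCap-like cells was 0.40 or 0.60 on the log2 scale beside 0.47. The median at 6 h stayed between 0.07 and 0.14. The leaving out of rRNA-like barcodes was chosen after seeing the data. The low counts of Mvd, Lss and Tm7sf2 limit what their ratios can show.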
